A study of Arabidopsis thaliana with 18 samples.

Results

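Without sucrose, dark-grown seedlings of the gnc gnl double mutant were compared with Col-0 seedlings in 6 RNA sequencing libraries, 3 of gnc gnl and 3 of Col-0, out of 18 in the series. The members were chosen by the genotype and medium given in the labels, and no measured value entered the choice. The double mutant gnc gnl is mutated in both GNC and GNL, and the labels name no alleles. Col-0 is the Columbia reference line, and per the labels all genotypes are in this ecotype. Seedlings were 3 days old, had been kept in darkness at 21 °C, and grew on half-strength Murashige and Skoog medium, a mineral medium with no added sugar (MS). The same pair of genotypes with 1% sucrose (SUC, 3 libraries each) and a transgenic line called GNLox (3 libraries on each medium; the promoter of its transgene is not given in the sources used here) are set beside these values where stated. The total RNA came from whole seedlings, so fewer cells of a type and less RNA per cell cannot be told apart in any value below.

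GNC and GNL are zinc-finger proteins of the B-class GATA family, which bind DNA motifs with GATA at their centre. In Arabidopsis they are known to promote greening, chlorophyll synthesis and chloroplast development, to act downstream of gibberellin, cytokinin and light signalling, and to be partly redundant with each other and with related B-GATA factors. A seedling raised in darkness has no green chloroplasts: it lengthens its hypocotyl, keeps its apical hook closed and lives on seed reserves, so most photosynthesis genes are held low.

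The 6 libraries held 30508391 to 41942516 total gene reads. Nuclear ribosomal RNA genes took 11.8% to 23.2% of the reads in gnc gnl and 7.63% to 14.5% in Col-0, and plastid-encoded genes took 5.79% to 12.4% in gnc gnl and 6.37% to 8.69% in Col-0. Levels are given as CPM (reads scaled to a common library size) after scaling of the library sizes with trimmed means of M values, and changes as log2 ratios of gnc gnl over Col-0 ± SE. A gene was called, and is said to have risen or fallen, where edgeR's quasi-likelihood test gave a Benjamini-Hochberg adjusted p under 0.05 over the 21903 genes tested. The labels do not say that replicates came from separate cultures, so the p-values reflect how far libraries of a group differ among themselves, which may be technical. That spread was estimated over all 18 libraries of the series, not from these 6 alone. The libraries did not lie evenly: on the first principal component of the 6 libraries, which held 53.8% of the variance, gnc gnl replicates 1 to 3 lay at 43.2, 13.6 and -2.25, against -28.3, -11.4 and -14.8 for Col-0 replicates 1 to 3. Replicate 1 of gnc gnl lay farthest out; it was the highest of the 6 libraries for 28.7% of all genes tested.

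GNC (AT5G56860, also called GATA21, on the minus strand of chr5:22989216-22991530, TAIR10) fell in the mutant. Its level was 9.26, 9.23 and 8.51 CPM in gnc gnl, against 17.3, 35.4 and 29.4 CPM in Col-0. All gnc gnl libraries lay below all Col-0 libraries, and the log2 ratio was -1.61 ± 0.29 (edgeR adjusted p = 0.0195). GNL (AT4G26150, also called GATA22 and CGA1, on the plus strand of chr4:13253084-13255106) had 7.12, 10.6 and 11.1 CPM in gnc gnl and 5.85, 21.8 and 12.9 CPM in Col-0. The groups overlapped, with Col-0 replicate 1 below every gnc gnl library, and the log2 ratio of -0.49 ± 0.40 did not pass the test (edgeR adjusted p = 0.526). The authors' deposited TPM values, which also account for gene length, averaged 7.50 ± 0.48 for GNC in gnc gnl and 25.6 ± 9.95 in Col-0, and 8.65 ± 2.37 for GNL in gnc gnl and 13.9 ± 9.05 in Col-0 (SD, n = 3 each). The call for GNC held in 2 of the 6 fits that each left out 1 library, with adjusted p-values between 0.013 and 0.0944 over them.

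Without sucrose, a larger share of the reads of both genes lay in introns in the mutant. For GNC, intron reads made up 9.23%, 5.36% and 5.95% of the gene's reads in gnc gnl, against 1.69%, 1.67% and 1.41% in Col-0. Pooled over libraries the share was 52 of 753 reads in gnc gnl, 6.91% (Wilson 95% interval 5.31% to 8.94%), against 43 of 2742 reads in Col-0, 1.57% (1.17% to 2.11%). For GNL the shares were 9.0%, 10.1% and 7.39% in gnc gnl, against 2.78%, 1.81% and 2.21% in Col-0. In both genes every gnc gnl library lay above every Col-0 library; the exact two-sided permutation test gave p = 0.1 for each gene, the smallest value that 3 libraries against 3 allow. Over all nuclear genes without ribosomal RNA, intron reads made up 1.34% to 1.48% in gnc gnl and 1.44% to 1.61% in Col-0, so the libraries as a whole did not show the difference. Reads that span 2 exons of GNC made up 13.4% of its pooled reads in gnc gnl and 14.5% in Col-0, with overlapping intervals of 11.2% to 16.0% and 13.2% to 15.8% (exact two-sided permutation p = 0.5 over the libraries). For GNL such reads made up 11%, 10.9% and 7.67% in gnc gnl, against 12.8%, 11.6% and 11.3% in Col-0. Every gnc gnl library lay below every Col-0 library for GNL, again with the smallest possible exact permutation p = 0.1. The intervals cover counting error only, since copies made by PCR are counted as separate reads. The plot of GNC and GNL by library shows the same split of the intron shares in the libraries with sucrose for GNC, where they were 9.38%, 9.80% and 7.64% in gnc gnl and 1.44%, 1.60% and 0.849% in Col-0. For GNL with sucrose the shares overlapped, at 6.34%, 9.88% and 6.34% in gnc gnl and 7.41%, 6.25% and 3.26% in Col-0.

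**Figure D1:**
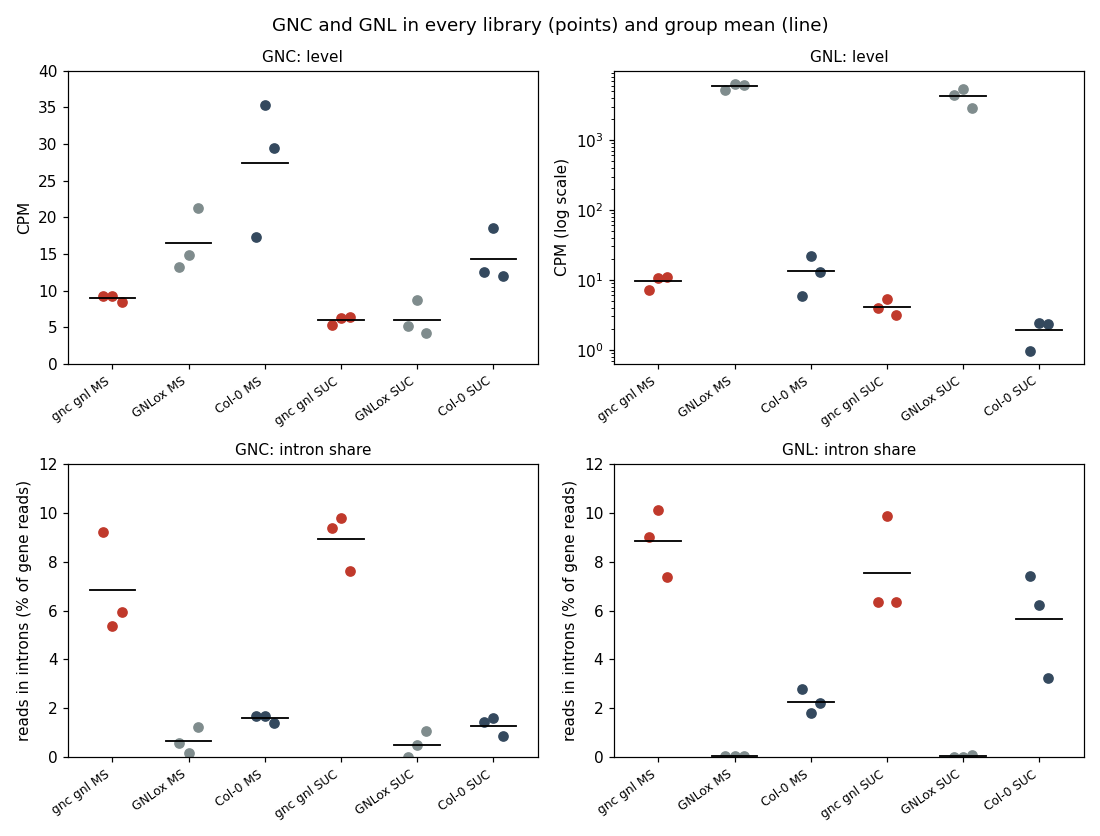
Level in CPM (top; linear axis for GNC, log axis for GNL) and share of the gene's reads that lay in introns (bottom, in percent) for GNC (left) and GNL (right). Each point is a library and each line a group mean; gnc gnl stands left of GNLox and Col-0 on each medium, and on MS its GNC points sit near 9 CPM, below every Col-0 point.

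GNLox, which carries extra GNL, had 5135, 6289 and 6191 CPM of GNL on MS. Its intron share of GNL was 0.031% of the pooled reads. With sucrose GNC averaged 5.99 ± 0.63 CPM in gnc gnl and 14.4 ± 3.65 CPM in Col-0, and GNL averaged 4.13 ± 1.1 CPM in gnc gnl and 1.90 ± 0.81 CPM in Col-0 (SD, n = 3 each). On that medium neither gene passed the test (edgeR adjusted p = 0.112 for GNC and 0.252 for GNL).

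Of the other B-GATA genes, 7 of 9 had reads enough to be tested, and none was called. GATA17L (AT4G16141), the closest to a call, had 25.2, 21.5 and 17.2 CPM in gnc gnl, against 10.1, 14.6 and 12.8 CPM in Col-0. The groups did not overlap, and its log2 ratio was 0.77 ± 0.20 (edgeR adjusted p = 0.0707). GATA17L was called in 1 of the 6 fits that each left out 1 library, and in 2 of 9 fits with other processing. The log2 ratios of GATA15, GATA16, GATA17, HAN (a regulator of flower and embryo patterning), HANL1 and HANL2 lay between 0.08 and 1.03, with adjusted p-values of 0.203 to 0.933. HAN, HANL1 and HANL2 were at 3.24 CPM or less in every one of the 6 libraries. None of the 10 tested genes nearest to GNC and none of the 10 nearest to GNL was called, with adjusted p-values of at least 0.131 and 0.0986.

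Across all genes, 283 of 21903 were called, 217 higher and 66 lower in gnc gnl. That is 1.29% of the genes tested, 0.991% higher and 0.301% lower. At an unadjusted p under 0.05 there were 3988 genes, and 24.7% of all genes tested had groups that did not overlap. The median log2 ratio of all genes was -0.014. The number called rested on single libraries. It was 20 without gnc gnl replicate 1, 65 without replicate 2 and 908 without replicate 3, and 43, 61 and 25 without Col-0 replicates 1, 2 and 3. Of the 283 calls, 19 were kept in all 6 of these fits, 182 in exactly 1, and 181 of those 182 in the fit without gnc gnl replicate 3. The DESeq2 Wald test called 1040 genes, and a fit of the 2 groups alone called 31.

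**Figure D2:**
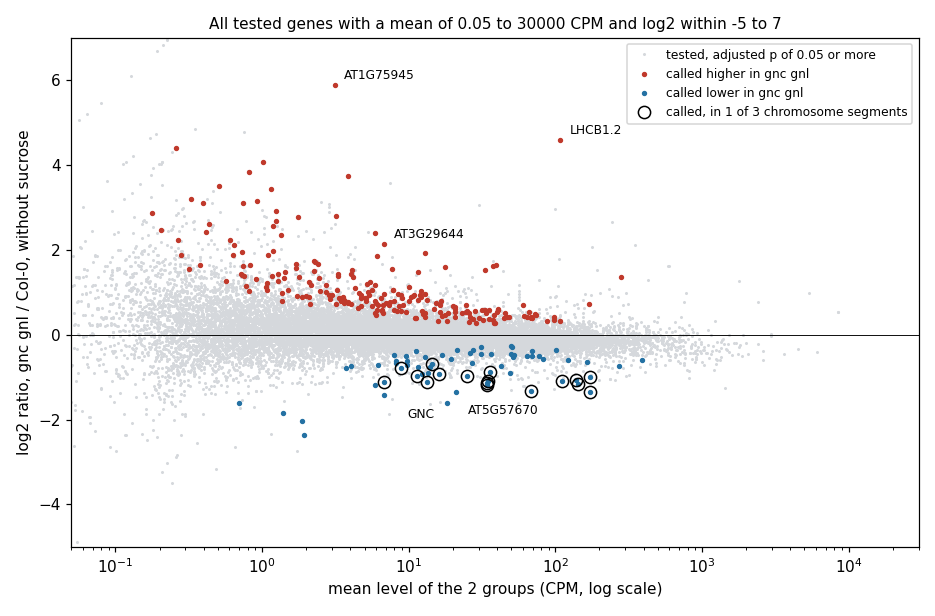
Mean level (CPM, log axis) against log2 ratio of gnc gnl over Col-0 without sucrose, 1 point per gene tested; red genes were called higher, blue genes lower, and circles mark called genes in 3 chromosome segments. Most circles lie near a log2 ratio of -1, and 217 genes were called higher against 66 lower.

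The 19 calls kept in all 6 fits were 9 genes that rose and 10 that fell, and 8 of the 10 that fell lay in 3 short stretches of chromosome. The 9 that rose were AT1G75945, AT3G29644, CP1, NIP1-1, XTH32, LEP, AT3G61490, AT4G23500 and a histone H3 gene (AT5G10400). The 2 that fell outside the stretches were AT5G57670 and TFIIB2. XTH32, LEP, AT3G61490, AT4G23500 and AT5G10400 are named here for being in this group, after their values were seen. XTH32, an enzyme that cuts and rejoins xyloglucan in the cell wall, averaged 3.07 ± 0.54 CPM in gnc gnl and 0.45 ± 0.13 CPM in Col-0 (SD, n = 3 each; log2 ratio 2.77 ± 0.38, edgeR adjusted p = 0.00362). LEP (LEAFY PETIOLE), an AP2-type transcription factor, averaged 2.57 ± 0.71 CPM in gnc gnl and 0.86 ± 0.24 CPM in Col-0 (log2 ratio 1.56 ± 0.22). Both pectin lyase-like genes rose less, with log2 ratios of 1.05 ± 0.15 for AT3G61490 and 0.78 ± 0.11 for AT4G23500.

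The stretches were found after the values were seen, by taking 3 or more called genes of 1 direction with less than 30000 bases between neighbours. The rule found 3 stretches of lower genes and 1 of higher genes. The largest, chr5:16852628-16921596 (TAIR10, 69.0 kb), held 12 tested genes, of which 11 fell in gnc gnl. SKP1B (AT5G42190), a subunit of SCF ubiquitin ligases, had 86.1, 84.1 and 91.7 CPM in gnc gnl, against 205.7, 190.6 and 193.1 CPM in Col-0. The gnc gnl libraries were tightly grouped at less than 92 CPM, far below Col-0, with a log2 ratio of -1.17 ± 0.14 (edgeR adjusted p = 0.00133). FTSH5 (AT5G42270, also known as VAR1), a subunit of the thylakoid FtsH protease, had 95.1, 94.8 and 99.0 CPM in gnc gnl, against 200.03, 266.9 and 272.03 CPM in Col-0. Its log2 ratio was -1.35 ± 0.17 (edgeR adjusted p = 0.00179). AT5G42220, which encodes a ubiquitin-like superfamily protein, had 66.3, 71.5 and 75.6 CPM in gnc gnl, against 143.3, 150.6 and 161.1 CPM in Col-0. With a log2 ratio of -1.09 ± 0.10 it had one of the smallest adjusted p-values of all genes (edgeR adjusted p = 6.96e-05). UBL5 (AT5G42300, ubiquitin-like protein 5) had 87.1, 88.7 and 94.98 CPM in gnc gnl, against 214.3, 176.7 and 172.2 CPM in Col-0, without overlap (log2 ratio -1.06 ± 0.15).

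The other genes of the chromosome 5 stretch lay in the same range of ratios. PER64 (AT5G42180), a peroxidase that acts in lignin deposition at the Casparian strip of the root endodermis, had 34.4, 33.9 and 48.1 CPM in gnc gnl, against 123.01, 84.9 and 84.5 CPM in Col-0 (log2 ratio -1.33 ± 0.24, edgeR adjusted p = 0.0199). CRP1 (AT5G42310), a pentatricopeptide repeat protein that processes plastid transcripts, had 21.1, 20.9 and 20.05 CPM in gnc gnl, against 33.6, 54.8 and 53.4 CPM in Col-0 (log2 ratio -1.19 ± 0.24). ATL23 (AT5G42200), a RING-type ubiquitin ligase, AT5G42250, annotated as a zinc-binding alcohol dehydrogenase, AT5G42280, a C1-domain protein, AT5G42320, a zinc-dependent exopeptidase, and SCPL42, a serine carboxypeptidase-like protein, had log2 ratios of -1.13, -1.1, -0.78, -0.88 and -0.69. AT5G42210, a major facilitator superfamily transporter gene in the middle of the stretch, was not called and had 3.85, 3.5 and 3.57 CPM in gnc gnl, against 5.04, 4.93 and 5.94 CPM in Col-0 (log2 ratio -0.54 ± 0.17, edgeR adjusted p = 0.11). On either side the ratio returned to near 0: the 5 tested genes to the left had a median log2 ratio of 0.14 and the 5 to the right -0.05, and none was called.

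The chromosome 2 stretch, chr2:17663353-17701417 (38.1 kb), held 7 tested genes with 3 calls. PP2A3 (AT2G42500), a catalytic subunit of protein phosphatase 2A, had 118.8, 112.3 and 113.5 CPM in gnc gnl, against 219.4, 227.2 and 237.95 CPM in Col-0 (log2 ratio -0.99 ± 0.11, edgeR adjusted p = 0.000474). AT2G42450, an alpha/beta-hydrolase gene, had 4.59, 4.82 and 3.6 CPM in gnc gnl, against 8.0, 10.03 and 9.94 CPM in Col-0 (log2 ratio -1.11 ± 0.13, edgeR adjusted p = 0.00107). LBD16 (AT2G42430), a LOB-domain transcription factor that acts in lateral root initiation, had 7.48, 7.91 and 7.75 CPM in gnc gnl, against 18.1, 13.5 and 14.01 CPM in Col-0 (log2 ratio -0.98 ± 0.20, edgeR adjusted p = 0.0293). In all 3 genes each gnc gnl library lay below each Col-0 library. AT2G42490, a copper amine oxidase gene, had a ratio of similar size that did not pass the test (log2 ratio -0.86 ± 0.23, edgeR adjusted p = 0.0707), and AT2G42480, below 0.5 CPM in every one of the 6 libraries, had a positive ratio of 0.70 ± 0.43.

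In the chromosome 3 stretch, chr3:8966521-8990889 (24.4 kb), 3 of 5 tested genes fell. PLSP1 (AT3G24590), the plastid signal peptidase, had 11.4, 10.8 and 11.1 CPM in gnc gnl, against 19.2, 22.3 and 21.9 CPM in Col-0 (log2 ratio -0.93 ± 0.08, edgeR adjusted p = 6.96e-05). AT3G24570, an Mpv17/PMP22 family gene, had a log2 ratio of -0.97 ± 0.13, and AT3G24630 had one of -1.11 ± 0.16. Of the 5 tested genes of this stretch 4 overlap other genes, among them the 2 that were not called, AT3G04755 and AT3G24575. Over the 3 stretches 13 of the 24 tested genes overlap other genes. The strand of the reads is not given in the sources used here, so reads of genes that overlap on opposite strands cannot be told apart. The single stretch of higher genes, chr5:24560309-24612564, was of another kind: 3 of its 8 tested genes rose, with a median log2 ratio over the 8 of 0.12.

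The 3 stretches together held 24 tested genes with a median log2 ratio of -1.04, and 17 of them made up 25.8% of the 66 genes called lower in gnc gnl than in Col-0. These numbers follow from how the stretches were chosen and are a description. The ratios with sucrose did not enter that choice. Those libraries did share the low-count filter and the estimate of the spread, so the calls on the media are not fully independent. With sucrose 15 of the 24 genes fell in gnc gnl, 23 of 24 had a negative ratio, and the median log2 ratio was -0.95. Of all genes tested on that medium 0.105% fell. The stretches differed: 10 of 12 genes fell on chromosome 5, 4 of 7 on chromosome 2 and 1 of 5 on chromosome 3. The chromosome 3 stretch had a median log2 ratio of -0.68 with sucrose, and the 5 genes to its right one of -0.46. None of the 30 flanking genes was called on either medium. In the test of the difference between media none of the 24 genes was called. Of the 15 genes that fell on both media, 13 lay in the stretches.

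**Figure D3:**
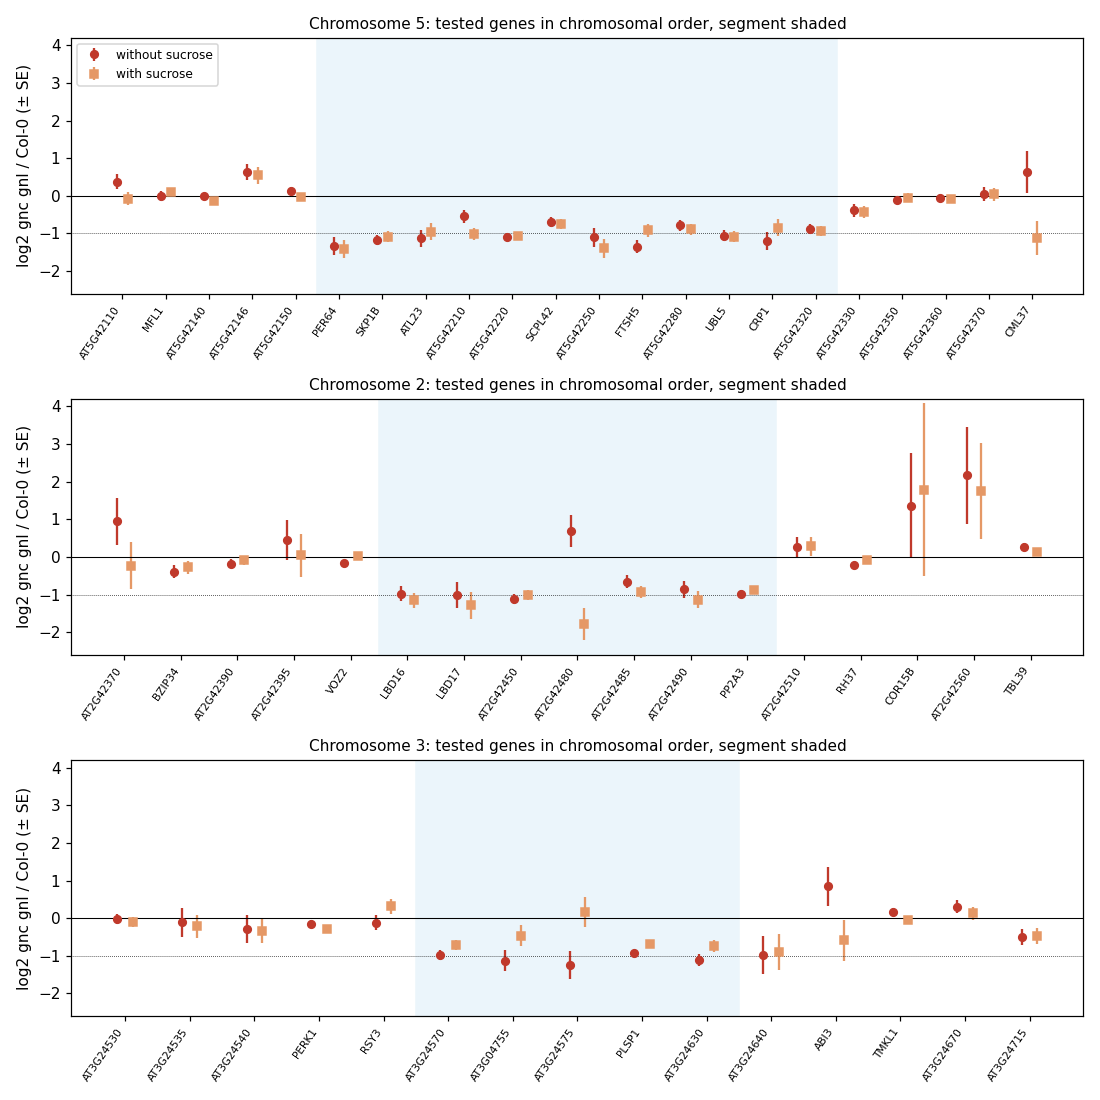
Log2 ratio ± SE of gnc gnl over Col-0 for tested genes in chromosomal order in the stretches on chromosomes 5, 2 and 3 (shaded) and 5 genes on each side, without sucrose (circles) and with sucrose (squares). Shaded genes lie mostly near the dotted line at -1 on both media, and the flanking genes mostly near 0, with wide error bars where reads were few.

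In GNLox the same genes were also below Col-0. On MS, SKP1B averaged 87.3 ± 3.93 CPM in gnc gnl, 86.96 ± 6.17 CPM in GNLox and 196.5 ± 8.08 CPM in Col-0 (SD, n = 3 each). PP2A3 averaged 114.9 ± 3.45 CPM in gnc gnl, 110.9 ± 7.63 CPM in GNLox and 228.2 ± 9.34 CPM in Col-0. PLSP1 averaged 11.1 ± 0.30, 11.6 ± 0.84 and 21.1 ± 1.69 CPM in gnc gnl, GNLox and Col-0. PER64 lay between, at 38.8 ± 8.04 CPM in gnc gnl, 70.2 ± 18.7 CPM in GNLox and 97.5 ± 22.1 CPM in Col-0. Against the same Col-0 libraries, 21 of the 24 genes fell in GNLox (7% of all genes tested did, and 6.53% rose), with a median log2 ratio of -0.97. Both ratios share the 3 Col-0 libraries, so they are not independent. Since SKP1B, PP2A3 and PLSP1 had close levels in gnc gnl and GNLox, a lower level in these lines and a higher level in this Col-0 line cannot be told apart. With sucrose, where all 9 libraries are others, SKP1B averaged 70.02 CPM in gnc gnl, 75.04 CPM in GNLox and 148.1 CPM in Col-0, and PP2A3 averaged 104.1, 101.1 and 191.3 CPM in gnc gnl, GNLox and Col-0.

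Among genes that rose elsewhere, AT1G75945 stood first. It had 5.95, 6.63 and 5.91 CPM in gnc gnl, against 0, 0.20 and 0.10 CPM in Col-0. It was close to absent from Col-0 and even across gnc gnl, with a log2 ratio of 5.89 ± 0.54 (edgeR adjusted p = 6.96e-05). The long non-coding RNA gene AT3G29644 had 12.5, 10.01 and 10.9 CPM in gnc gnl, against 2.28, 2.70 and 2.62 CPM in Col-0 (log2 ratio 2.13 ± 0.15, edgeR adjusted p = 5.92e-06). Both genes also rose with sucrose, by log2 ratios of 4.81 and 2.11, and both lay between the other genotypes in GNLox on MS, at means of 0.47 and 5.73 CPM. AT3G05955 rose on both media, with very few reads: on MS it had 42 reads in gnc gnl and 2 in Col-0, a ratio of 24.9 with an exact 95% counting interval of 6.48 to 212.6. Its call was kept in 3 of 6 fits. AT3G05945, another long non-coding RNA gene, rose on both media, by log2 ratios of 0.78 ± 0.17 on MS and 1.01 with sucrose. Its call on MS was kept in 1 of 6 fits. AT3G29644, AT3G05945 and AT3G05955 lie near one another on chromosome 3, starting at 11498879, 11510090 and 11586005. The rule for stretches, with its limit of 30000 bases between neighbours, did not join them. Whether their increases are linked was not tested.

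Of the other large increases in genes whose mean reached 2 CPM, those of NIP1-1 and CP1 were kept in all 6 fits. NIP1-1 (AT4G19030), a membrane channel of the aquaporin family, had 8.08, 4.0 and 4.65 CPM in gnc gnl, against 0.68, 1.12 and 0.62 CPM in Col-0 (log2 ratio 2.80 ± 0.38, edgeR adjusted p = 0.00362). CP1 (AT4G36880), a cysteine proteinase, had 16.2, 13.9 and 31.2 CPM in gnc gnl, against 5.5, 5.99 and 4.70 CPM in Col-0 (log2 ratio 1.93 ± 0.24, edgeR adjusted p = 0.00179). Neither gene's groups overlapped. TGG2 (AT5G25980), a myrosinase that breaks down glucosinolates, had 10.04, 8.36 and 3.26 CPM in gnc gnl, against 0.94, 0.16 and 0.49 CPM in Col-0 (log2 ratio 3.75 ± 0.67, edgeR adjusted p = 0.0195), and its call was kept in 1 of 6 fits. XTH7 (AT4G37800), a xyloglucan-modifying enzyme, had 18.9, 6.10 and 4.58 CPM in gnc gnl, against 2.67, 1.87 and 1.12 CPM in Col-0; replicate 1 was far above the other gnc gnl libraries, and the call was kept in 1 of 6 fits. EXPA15 (AT2G03090), an expansin that loosens cell walls, had 4.70, 3.67 and 2.62 CPM in gnc gnl, against 0.62, 1.32 and 1.45 CPM in Col-0 (log2 ratio 1.68 ± 0.28), and its call was kept in 5 of 6 fits. GLL23, a GDSL lipase-like protein, AT4G22490, a lipid-transfer family gene, AT5G35740, with a carbohydrate-binding X8 domain, and AT3G06880, a WD40-repeat protein, rose by log2 ratios of 1.64, 1.87, 1.75 and 1.72, and each of these calls was kept in 1 or 2 of 6 fits. On MS, CP1, TGG2, AT5G35740 and AT3G06880 also rose in GNLox against the same Col-0 libraries. Their log2 ratios there were 1.54, 3.86, 1.09 and 1.57 (edgeR adjusted p = 0.00129, 0.00239, 0.0283 and 0.00663). NIP1-1, XTH7 and AT4G22490 were not called in GNLox, with log2 ratios of 0.33, -0.17 and 1.03.

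Outside the stretches and GNC, the largest decreases among called genes whose mean reached 2 CPM, and whose groups were apart, were in AT4, AT5G57670 and AT1G25141. Below that mean AT5G33390, ATL59, ATGLR2.3 and QQS had larger ones, with log2 ratios of -2.37, -2.03, -1.84 and -1.62, kept in 1 to 3 of 6 fits; they are named here after their values were seen. AT5G57670, a protein kinase superfamily gene, had 11.3, 11.3 and 12.6 CPM in gnc gnl, against 30.8, 27.95 and 31.6 CPM in Col-0. The libraries of each group lay close together: the log2 ratio was -1.36 ± 0.10, and its adjusted p was equal to that of AT3G29644 (edgeR adjusted p = 5.92e-06). It also fell with sucrose (log2 ratio -0.64, edgeR adjusted p = 0.0115), while GNLox on MS, at 24.3, 25.6 and 26.4 CPM, did not pass the test (edgeR adjusted p = 0.10). AT4 (AT5G03545), a transcript known to be induced by phosphate starvation, had 4.13, 3.17 and 3.79 CPM in gnc gnl, against 12.8, 7.01 and 9.78 CPM in Col-0 (log2 ratio -1.41 ± 0.30, edgeR adjusted p = 0.038), and its call was kept in 2 of 6 fits. AT1G25141, an F-box associated gene, had a log2 ratio of -1.18 ± 0.22, kept in 1 of 6 fits. TFIIB2 (AT3G10330), a general transcription factor of RNA polymerase II, had 7.98, 8.82 and 9.17 CPM in gnc gnl, against 14.9, 15.1 and 13.9 CPM in Col-0 (log2 ratio -0.75 ± 0.10, edgeR adjusted p = 0.00362). With sucrose TFIIB2 fell by 1.07 on the log2 scale.

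Because GNC and GNL bind GATA motifs, the 250 bases before the annotated start are shown for the first 3 genes that rose and the first 3 that fell by the rule used to name genes, GNC included. They are from the RefSeq genome TAIR10.1, in which these genes have the same start and end as in the deposited tables, and are written 5′ to 3′ on the gene's strand, with capitals for the motif AGATAA, for its variant AGATAG, for TGATAA, or for its variant TGATAG, on either strand.
AT1G75945, chr1:28515917-28516166, minus strand: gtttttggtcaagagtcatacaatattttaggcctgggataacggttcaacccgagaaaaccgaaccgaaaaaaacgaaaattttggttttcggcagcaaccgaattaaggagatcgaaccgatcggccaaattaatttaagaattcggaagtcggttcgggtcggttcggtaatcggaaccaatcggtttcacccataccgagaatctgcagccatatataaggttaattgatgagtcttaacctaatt
LHCB1.2, chr1:10473503-10473752, minus strand: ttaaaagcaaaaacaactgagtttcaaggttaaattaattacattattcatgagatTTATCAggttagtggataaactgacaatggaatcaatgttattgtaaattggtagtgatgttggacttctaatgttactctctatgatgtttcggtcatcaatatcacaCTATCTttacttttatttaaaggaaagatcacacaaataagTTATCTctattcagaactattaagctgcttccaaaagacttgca
TGG2, chr5:9072458-9072707, plus strand: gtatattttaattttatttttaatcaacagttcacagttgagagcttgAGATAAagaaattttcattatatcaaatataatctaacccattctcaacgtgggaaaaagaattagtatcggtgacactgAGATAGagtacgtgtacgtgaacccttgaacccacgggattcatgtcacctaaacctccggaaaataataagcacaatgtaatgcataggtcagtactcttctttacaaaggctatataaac
GNC, chr5:22991531-22991780, minus strand: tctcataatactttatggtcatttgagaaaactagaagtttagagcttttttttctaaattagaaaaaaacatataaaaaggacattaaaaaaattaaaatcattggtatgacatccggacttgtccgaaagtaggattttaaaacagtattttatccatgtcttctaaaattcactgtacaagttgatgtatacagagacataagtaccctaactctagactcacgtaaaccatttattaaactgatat
AT4, chr5:894332-894581, plus strand: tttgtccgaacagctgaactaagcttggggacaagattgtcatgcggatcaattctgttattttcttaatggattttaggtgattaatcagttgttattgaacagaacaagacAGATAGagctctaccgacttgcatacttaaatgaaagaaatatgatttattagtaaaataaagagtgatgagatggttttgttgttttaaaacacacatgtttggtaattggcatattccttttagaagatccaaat
AT5G57670, chr5:23363840-23364089, minus strand: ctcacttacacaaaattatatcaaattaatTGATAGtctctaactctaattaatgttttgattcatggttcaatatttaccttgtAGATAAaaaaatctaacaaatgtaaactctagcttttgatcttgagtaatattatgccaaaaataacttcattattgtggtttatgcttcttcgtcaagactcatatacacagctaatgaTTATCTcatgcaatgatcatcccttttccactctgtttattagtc
Of all 32546 such windows of nuclear genes, 54.1% held at least 1 of the 4 motifs, with a median of 1 match. LHCB1.2 and AT5G57670 held 3 matches each, TGG2 held 2, AT4 held 1, and AT1G75945 and GNC held none. A match says only that these letters are present.

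Light-harvesting and photosynthesis genes were high in gnc gnl replicate 1, while the summed levels of the other 2 gnc gnl libraries lay within or near the range of Col-0. Of the 20 antenna genes, which encode the chlorophyll-binding proteins of the photosystems, 1 rose and none fell. LHCB1.2 (AT1G29910) had 505.2, 80.8 and 36.7 CPM in gnc gnl, against 6.11, 13.1 and 6.51 CPM in Col-0. Every gnc gnl library was above every Col-0 library, but the gnc gnl libraries themselves were far apart; the log2 ratio was 4.60 ± 1.05 (edgeR adjusted p = 0.0459), and the call was kept only without gnc gnl replicate 3. LHCB1.2 is nearly identical to other LHCB1 genes, so its share of reads with several matches is uncertain. LHCB3, also in the outer antenna, had 920.3, 187.4 and 154.6 CPM in gnc gnl, against 39.4, 101.2 and 59.0 CPM in Col-0 (log2 ratio 2.66 ± 0.74, edgeR adjusted p = 0.0836). LHCB1.4 had 1359, 186.7 and 158.8 CPM in gnc gnl, against 128.02, 123.5 and 142.01 CPM in Col-0 (log2 ratio 2.11 ± 1.03, edgeR adjusted p = 0.29).

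Replicate 1 of gnc gnl was the highest of the 6 libraries for 19 of 20 antenna genes, 29 of 34 nuclear photosystem and Calvin cycle genes and 20 of 31 genes of chlorophyll and tetrapyrrole synthesis, against 28.7% of all genes tested. The summed level of the antenna list was 16514.5, 5547 and 4752 CPM in gnc gnl, against 3316, 5183 and 5038 CPM in Col-0. Without replicate 1 the median log2 ratio of the antenna list was 0.40, and with all libraries 1.14; the median of all genes tested was -0.020 and -0.014. The photosystem and Calvin cycle list had a median of 0.34 with all libraries and 0.021 without replicate 1, and the chlorophyll list 0.25 and 0.10. Both medians were also small without Col-0 replicate 1, at 0.098 for photosystem and Calvin cycle genes and 0.104 for chlorophyll genes, and that of the antenna list was then 0.97. No member of the photosystem or chlorophyll list was called. PORB, a light-dependent protochlorophyllide reductase of the etioplast, had 365.2, 292.5 and 289.1 CPM in gnc gnl, against 94.9, 185.8 and 169.6 CPM in Col-0 (log2 ratio 1.07 ± 0.37, edgeR adjusted p = 0.151). RBCS1B, a small subunit of Rubisco, had 55.8, 22.1 and 17.96 CPM in gnc gnl, against 2.96, 10.8 and 4.44 CPM in Col-0 (log2 ratio 2.40 ± 0.63, edgeR adjusted p = 0.0733). Both genes had groups that did not overlap.

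**Figure D4:**
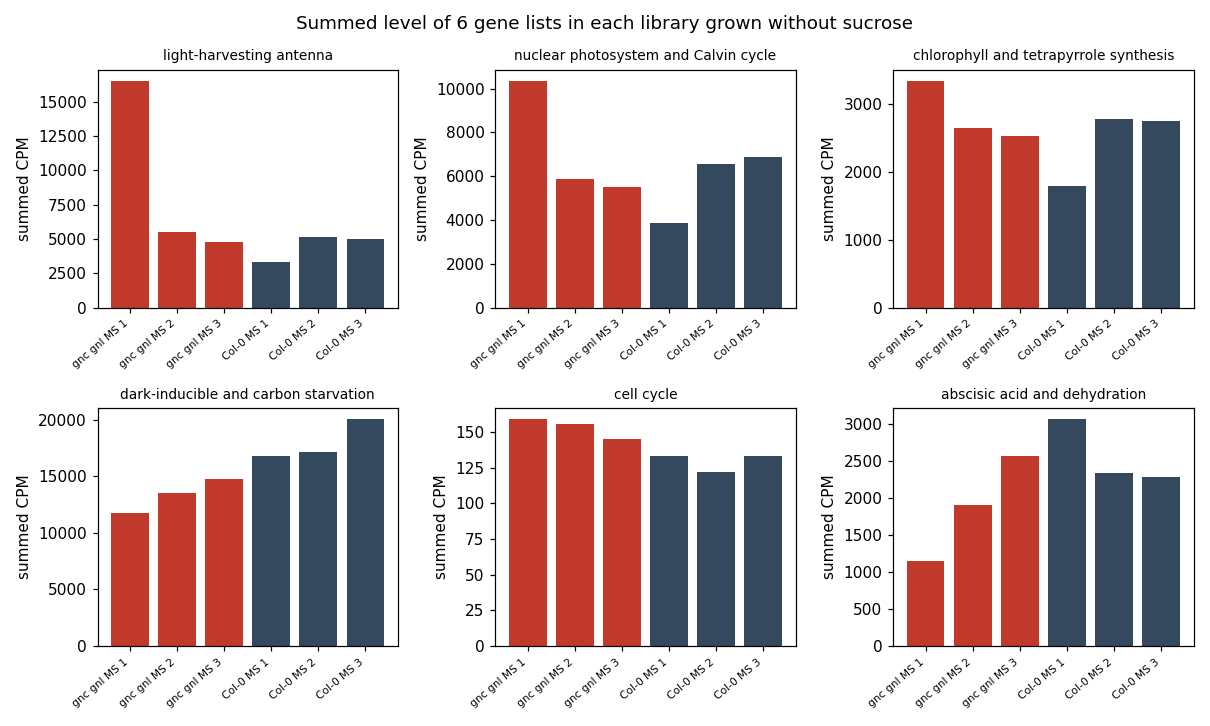
Summed level in CPM of 6 gene lists in each library without sucrose, gnc gnl replicates in red and Col-0 replicates in dark blue; bars start at 0. The antenna sum of gnc gnl replicate 1, at 16514.5 CPM, is far above the other 5 libraries, and the dark-inducible sum is lower in every gnc gnl library than in every Col-0 library.

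Genes induced by darkness and carbon starvation mostly had negative ratios, none of which passed the test. Of 31 tested members, 30 had a negative ratio and 22 had groups without overlap and lower in gnc gnl, against 2659 of 21903 genes over the whole table; none was called, and the median log2 ratio was -0.37. The summed level was 11749.5, 13507 and 14767 CPM in gnc gnl, against 16742.5, 17113 and 20023 CPM in Col-0. DIN3, a subunit that breaks down branched-chain amino acids, had 178.3, 235.0 and 268.9 CPM in gnc gnl, against 372.7, 315.7 and 365.4 CPM in Col-0 (log2 ratio -0.63 ± 0.16, edgeR adjusted p = 0.0638). ATG8F, a ubiquitin-like protein of autophagy, had 154.7, 173.7 and 190.5 CPM in gnc gnl, against 229.5, 222.3 and 232.1 CPM in Col-0 (log2 ratio -0.40 ± 0.10, edgeR adjusted p = 0.0609). In both genes, too, replicate 1 was the lowest of the gnc gnl libraries. Without gnc gnl replicate 1 the list's median was -0.29, and without replicate 3 it was -0.42 with 4 members called lower.

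Some DNA replication genes rose. Of 17 tested cell cycle genes, 3 rose, where 0.991% of all genes tested did, and none fell. All 3 were subunits of the MCM helicase that unwinds DNA at replication forks. MCM4 had 7.62, 6.84 and 6.67 CPM in gnc gnl, against 3.35, 3.52 and 4.1 CPM in Col-0 (log2 ratio 0.94 ± 0.15, edgeR adjusted p = 0.0101). MCM2 had 7.51, 6.30 and 6.13 CPM in gnc gnl, against 3.71, 3.52 and 3.69 CPM in Col-0 (log2 ratio 0.87 ± 0.15, edgeR adjusted p = 0.0158). MCM7 had 9.65, 6.92 and 6.13 CPM in gnc gnl, against 4.49, 4.37 and 4.54 CPM in Col-0 (log2 ratio 0.76 ± 0.14, edgeR adjusted p = 0.0215). None of the 3 genes overlapped between groups. MCM3, MCM5, MCM6 and PCNA1, the sliding clamp, had ratios of 0.57 to 0.79 with groups that did not overlap and adjusted p-values of 0.0649 to 0.219. The median of the list was 0.50. It was 0.34 without gnc gnl replicate 1, with no member called, and also 0 were called without Col-0 replicate 1. The calls for MCM4, MCM2 and MCM7 were kept in 4, 2 and 2 of 6 fits.

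Core histone genes, which package newly copied DNA, were looked at after their values were seen. Of 27 tested, 4 rose, where 0.991% of all genes tested did, and none fell, with a median log2 ratio of 0.22; this set was picked with its values known, so nothing is read from its count. The histone H3 gene AT5G10400 had 9.58, 7.54 and 5.82 CPM in gnc gnl, against 3.74, 3.55 and 3.69 CPM in Col-0 (log2 ratio 1.06 ± 0.16, edgeR adjusted p = 0.00712). HTA6, a histone H2A gene, had 17.1, 14.6 and 12.4 CPM in gnc gnl, against 8.46, 8.52 and 8.17 CPM in Col-0 (log2 ratio 0.81 ± 0.13, edgeR adjusted p = 0.011). HIS4, a histone H4 gene, and the H3 gene AT1G09200 rose by 0.57 and 0.69. The call for AT5G10400 was kept in 6 of 6 fits, that for HTA6 in 4, and those for HIS4 and AT1G09200 in 1 each. Histone genes have near-identical copies, so the division of reads among them is uncertain.

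Of 13 stomatal lineage genes, 2 rose, where 0.991% of all genes tested did, and none fell. SDD1, a protease that limits stomatal density, had 1.32, 1.03 and 0.47 CPM in gnc gnl, against 0.033, 0.066 and 0.13 CPM in Col-0 (log2 ratio 3.5 ± 0.60, edgeR adjusted p = 0.017). EPF2, a peptide that limits entry into the lineage, had 1.1, 1.32 and 0.60 CPM in gnc gnl, against 0.098, 0.33 and 0.21 CPM in Col-0 (log2 ratio 2.23 ± 0.46, edgeR adjusted p = 0.0323). SPCH, the factor that starts the lineage, had 2.85, 3.34 and 2.02 CPM in gnc gnl, against 0.98, 1.51 and 1.32 CPM in Col-0, without overlap (log2 ratio 1.1 ± 0.27, edgeR adjusted p = 0.0566). The later factors MUTE and FAMA had ratios of 0.15 ± 0.47 and 0.12 ± 0.26. All of these are low levels, and the calls for SDD1 and EPF2 were kept in 2 and 1 of 6 fits. The summed level of the list was 231.9, 229.3 and 217.7 CPM in gnc gnl, against 159.8, 214.3 and 229.4 CPM in Col-0.

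Among the listed genes of carbon metabolism, 1 of starch synthesis and 1 of seed oil use rose and 1 of starch breakdown fell. ADG1, the small subunit of ADP-glucose pyrophosphorylase, had 21.3, 17.3 and 12.4 CPM in gnc gnl, against 4.52, 7.37 and 6.38 CPM in Col-0 (log2 ratio 1.48 ± 0.34, edgeR adjusted p = 0.0472). BAM1, a beta-amylase, had 53.7, 58.4 and 67.0 CPM in gnc gnl, against 71.7, 80.4 and 82.03 CPM in Col-0 (log2 ratio -0.39 ± 0.08, edgeR adjusted p = 0.0326). MLS, the malate synthase of the glyoxylate cycle, had 35.002, 62.6 and 50.1 CPM in gnc gnl, against 9.82, 29.7 and 12.04 CPM in Col-0 (log2 ratio 1.52 ± 0.35, edgeR adjusted p = 0.0495). MLS also rose with sucrose, where it had 52.5, 56.6 and 51.8 CPM in gnc gnl, against 6.55, 8.19 and 10.1 CPM in Col-0 (log2 ratio 2.69, edgeR adjusted p = 0.00487). In all 3 genes the groups did not overlap on MS, but the calls on MS were kept in 1 of 6 fits for ADG1, 1 for BAM1 and 2 for MLS. The medians of their lists, 0.056 for starch and sugar transport and -0.11 for seed oil use, lay close to that of all genes. These lists do not hold every gene of carbon metabolism. Outside them BAM2 (AT4G00490), ISA2 and KAT5 also rose, with calls kept in 3, 1 and 2 of 6 fits. They are named here after their values were seen.

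Single members were called in 6 further lists. In light signalling SPA4, a repressor of light responses that acts with COP1, fell to 10.1, 9.93 and 11.9 CPM in gnc gnl, against 14.1, 16.0 and 15.9 CPM in Col-0 (log2 ratio -0.53 ± 0.09, edgeR adjusted p = 0.0159). In the cell wall list the expansin EXPA4 fell (log2 ratio -0.91 ± 0.18, edgeR adjusted p = 0.0305). It had 32.9, 34.3 and 34.7 CPM in gnc gnl, against 60.4, 59.4 and 71.3 CPM in Col-0. Both drops came from groups that did not overlap. The cytokinin response regulator ARR3 rose by a log2 ratio of 1.44 ± 0.32, from levels below 0.5 CPM in every Col-0 library. FLS1, a flavonol synthase, rose by 2.92 ± 0.66, a call kept in none of the 6 fits. ICS1, which makes the precursor of salicylic acid, had 7.09, 3.71 and 3.70 CPM in gnc gnl, against 1.46, 1.74 and 2.18 CPM in Col-0 (log2 ratio 1.42 ± 0.27, edgeR adjusted p = 0.022). The calls for SPA4, EXPA4, ARR3 and ICS1 were kept in 1 or 2 of 6 fits. The sixth list is that of the B-GATA factors, through GNC. The cell wall list does not hold every gene of its kind. Outside it EXPA15, XTH7 and XTH32, given above, and also EXPA12 and XTH16 were called higher.

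**Figure D5:**
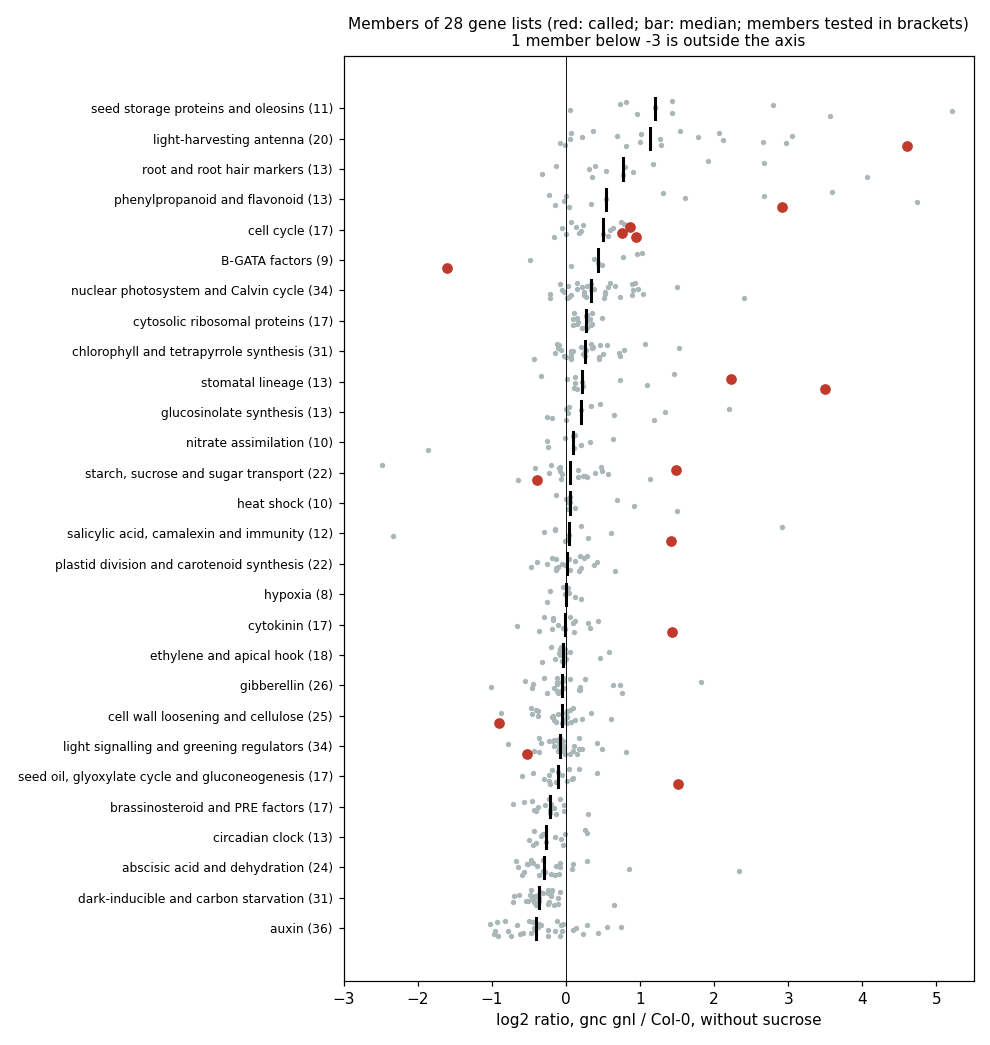
Log2 ratio of gnc gnl over Col-0 without sucrose for the tested members of 28 gene lists, with called members in red and the list median as a bar; lists are ordered by median, and 1 member below -3 is outside the axis. Seed storage, antenna and root hair lists have the highest medians, and auxin and dark-inducible lists the lowest, at -0.40 and -0.37.

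No member was called in the other lists. Of 36 auxin genes 29 had a negative ratio, with a median of -0.40, or -0.24 without Col-0 replicate 1; the SAUR genes SAUR19, SAUR20, SAUR21, SAUR22, SAUR23 and SAUR24, which act in cell elongation and lie in a tandem cluster of similar sequences, had ratios of -0.78 to -0.97. Of 24 genes of abscisic acid and dehydration 19 had a negative ratio (median -0.29, or -0.083 without gnc gnl replicate 1), and their summed level was 1144, 1899 and 2568 CPM in gnc gnl, against 3061, 2342 and 2284 CPM in Col-0, with overlap. Of 17 brassinosteroid and PRE genes 16 had a negative ratio (median -0.22, or -0.12 without Col-0 replicate 1). All 17 genes of the cytosolic ribosomal protein list had a positive ratio (median 0.28), and all 17 were highest in gnc gnl replicate 1. Without gnc gnl replicate 3, 8 of them were called higher. The list holds only a part of this family. Outside it other ribosomal protein genes were called higher with all libraries, among them RPL30B, RPL6A, RPL24A, RPS19C, RPS10C, RPS14B and RPP2B. Each of these calls was kept in 1 of 6 fits. The gibberellin list, of interest because GNC and GNL act downstream of this hormone, had a median of -0.055, and its smallest adjusted p was 0.119. Seed storage genes had a positive ratio in 11 of 11 members (median 1.2), but their summed level was 8.23, 4.45 and 3.76 CPM in gnc gnl, against 1.98, 2.302 and 2.18 CPM in Col-0. Root and root hair markers had a median of 0.77, and of 0.32 without gnc gnl replicate 1, 0.43 without Col-0 replicate 2 and 1.26 without Col-0 replicate 1. The list's summed level did not follow its median: it was 174.2, 164.4 and 191.6 CPM in gnc gnl, against 267.4, 183.2 and 156.0 CPM in Col-0, and their defining root hair genes EXPA7 and COBL9 were below 0.3 CPM in every one of the 6 libraries. Of 100 tested plastid-encoded genes 89 had a negative ratio (median -0.76), with none called and an edgeR adjusted p of at least 0.152. The share of all reads from plastid-encoded genes did not follow that median. It was 10.8%, 12.4% and 5.79% in gnc gnl, against 6.68%, 6.37% and 8.69% in Col-0. Of 60 mitochondria-encoded genes 48 had a positive ratio (median 0.26). The part of cell composition in any of these values was not tested.

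With sucrose, 35 genes were called between gnc gnl and Col-0 (0.16%), 12 higher (0.0548%) and 23 lower, and 32.3% of all genes tested had groups that did not overlap. Of these, 20 were also called without sucrose, 57.1% of the calls with sucrose and 7.07% of those without, all in the same direction. Of the 283 genes called without sucrose, 254 had a ratio of the same sign with sucrose, 89.8%, against 64.7% of all genes tested. The difference between the effect of gnc gnl on MS and its effect on SUC was called for 0 genes by edgeR, with 1656 genes (7.56%) at an unadjusted p under 0.05, and for 69 genes by DESeq2. MCM4, for example, had a log2 ratio of 0.18 (edgeR adjusted p = 0.484) with sucrose and LHCB1.2 one of -0.11 (edgeR adjusted p = 0.954), and in neither did the difference between media pass edgeR's test. The genes called on both media were, besides the 13 in the stretches, AT1G75945, AT3G29644, AT5G57670, TFIIB2, AT3G05955, AT3G05945 and MLS.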

How the data were processed

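Gene-level tables of 18 libraries were used, 1 per library, mapped to TAIR 10 per the submitters' processing notes; the sources used here give no aligner, counting program or strand. Per the file headers, the authors deposited counts of total, unique, exon, intron and exon-exon reads for 32833 genes, and TPM values, in which the authors corrected for gene length and scaled each library to the same sum; TPM entered no test. The test of total gene reads used edgeR 4.0.16 (R 4.3.3): low-count filter (21903 genes kept), TMM scaling, and 1 robust quasi-likelihood model of 6 group means over all 18 libraries with 12 residual degrees of freedom, two-sided, with Benjamini-Hochberg adjustment. The SE was taken as the ratio over the root of its F statistic. DESeq2 1.42.0 was an alternative. The test was tried on simulated data first.

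Genes were named by a rule: B-GATA factors, the 12 largest called increases and decreases whose groups do not overlap and whose mean reaches 2 CPM, up to 4 called members per list, 5 neighbours on each side of GNC and GNL, and the 8 clearest genes called on both media. The 28 lists held 552 genes, all in the files, 533 of them tested. Members, lists and rule were chosen with earlier results of these data known. No replicate library was a copy of another: chi square over its degrees of freedom was 20.8 or more for each pair. Gene positions matched the reference in 32532 of 32548 nuclear genes. Without pairing stated, the replicate number was not used: deviations of same-numbered gnc gnl and Col-0 libraries correlated over genes at -0.27, -0.10 and -0.27.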

Additional observations from a re-analysis of the deposited data

How the results depend on the processing

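The number of genes called without sucrose was 283; it lay between 20 and 908 with single libraries left out, and was 31 in a fit of the compared groups alone, 1040 with DESeq2 and 500 with the replicate number as a block. No pairing of the samples by replicate number is stated, and the block gave 34 calls with sucrose and 0 for the difference between media. With sucrose the count was 35, from 16 to 26 with single libraries left out, 105 in a fit of the compared groups alone and 341 with DESeq2. The difference between media had 0 calls, 0 to 1 with single libraries left out, and 69 with DESeq2. RLE scaling, no filter on low counts, unique reads, exon reads, nuclear genes only and leaving out nuclear ribosomal RNA genes kept the counts of both genotype comparisons within 1.5 times, from 255 to 303 without sucrose. Of the named genes, GNL changed sign without Col-0 replicate 2, and GATA16 without Col-0 replicate 3. With single libraries left out the log2 ratio lay between -0.85 and 0.030 for GNL. For GATA16 it lay between -0.047 and 0.25, and neither gene was called. In the fit of the compared groups alone, 30 named genes lost their call, and 22 kept both sign and call status. GNC, CP1, TFIIB2 and AT2G42450 were each called in 8 of 9 fits with other processing. Calls in the 3 stretches numbered 17, from 8 to 18 with single libraries left out (8 without gnc gnl replicate 1, 9 without Col-0 replicate 3), and 10 in the fit of the compared groups alone. Both the stretches and the list medians without single libraries were chosen after seeing the data. Fits without a library pooled the spread over all groups. The cause of these changes was not tested.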
